A study of Mus musculus with 8 samples.

Results

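The adhesive surface of stromal cells was examined through 10 genes among the 53801 genes of a count table: the adhesion receptors Vcam1, Icam1, Alcam and Madcam1, the cadherins Cdh2 and Cdh11, the small surface glycoproteins Pdpn and Thy1, and the surface enzymes Bst1 and Fap. They were chosen by gene symbol, and each of the 10 symbols matched 1 row. Reads came from 8 RNA-seq libraries of stromal cells sorted from MO5 tumours, which are B16 melanomas that carry ovalbumin, grown under the skin of ADAM12-GFP mice for 8 days. These young adult C57Bl/6 mice carry a bacterial artificial chromosome in which Adam12 regulatory sequences drive Cre and GFP, so that GFP stands for activity of the transgene and not for ADAM12 protein. All cells, in both groups, had passed a gate for PDPN and PDGFRα on the surface and for absence of CD45 and CD31. The 4 GFP+ libraries (ADAM12+ cells) were compared with the 4 GFP- libraries (ADAM12- cells). By the general statement in the study's methods the replicates of a group stand for separate mice, whereas the labels only number them, and neither says whether GFP+ and GFP- libraries with the same number came from the same mouse.

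Adhesion molecules of stromal cells set which cells can stay beside them. VCAM-1, ICAM-1 and MAdCAM-1 are immunoglobulin-fold ligands for leukocyte integrins, and in lymph nodes and inflamed tissue they let lymphocytes and myeloid cells hold on to endothelium and fibroblastic stroma. Cadherins join like cells to like cells and anchor the actin skeleton through catenins, and cadherin-11 is the cadherin best known from fibroblasts. Podoplanin binds CLEC-2 on platelets and dendritic cells and links to the actin skeleton through ezrin and moesin, and it marks reticular fibroblasts and lymphatic endothelium.

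Inflammatory induction of leukocyte ligands is known to run through NF-κB, so the 250 bases before the transcript start are shown for the 3 genes whose window held no annotated exon. RefSeq start sites were available for 4 members, the fourth being Alcam. Coordinates are of GRCm38.p6, sequences run 5′ to 3′ on the gene's own strand, and capitals mark the κB-type and E-box matches described after them.

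Icam1, chr9:21015690-21015939, plus strand: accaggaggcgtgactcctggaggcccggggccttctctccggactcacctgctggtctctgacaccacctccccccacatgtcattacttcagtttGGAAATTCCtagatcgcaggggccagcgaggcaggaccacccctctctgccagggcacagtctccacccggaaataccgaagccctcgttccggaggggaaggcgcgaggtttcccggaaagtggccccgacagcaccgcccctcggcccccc

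Madcam1, chr10:79664309-79664558, plus strand: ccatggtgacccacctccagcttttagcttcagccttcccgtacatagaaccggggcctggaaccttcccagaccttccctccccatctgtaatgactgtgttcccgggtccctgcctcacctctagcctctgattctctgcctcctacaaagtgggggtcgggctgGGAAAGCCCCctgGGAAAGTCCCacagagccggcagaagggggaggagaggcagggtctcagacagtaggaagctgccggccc

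Pdpn, chr4:143299565-143299814, minus strand: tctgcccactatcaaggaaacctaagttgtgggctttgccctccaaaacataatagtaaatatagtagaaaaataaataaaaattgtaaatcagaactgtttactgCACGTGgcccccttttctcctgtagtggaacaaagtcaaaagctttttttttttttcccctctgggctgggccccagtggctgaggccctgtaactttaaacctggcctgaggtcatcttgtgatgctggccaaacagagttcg

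The capitals in the Icam1 window mark GGAAATTCC, 153 to 145 bases before the start, a palindromic κB-type motif found on either strand in 0.286% of 32851 mouse promoters of the same length. The Madcam1 window held 2 matches to the κB consensus, at 83 to 74 and at 70 to 61 bases before the start, and 7.25% of promoters held at least 1 such match on either strand. The Pdpn window held neither κB-type motif, and its capitals mark an E-box, CACGTG, that 6.02% of promoters held. GGGCGG was found on the opposite strand of the Icam1 window and in 32.7% of all promoters. Neither TATAAA, found in 12.4% of promoters, nor the AP-1 type motif TGANTCA, found in 6.75%, was in any of these windows. Such matches describe letters in a window and show no binding. The searched genes with a κB-type match, Icam1 and Madcam1, were the third most abundant member and the least abundant member per length (levels below). Members without an available start site, Vcam1 among them, were not searched for motifs.

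The libraries held between 883144 and 31666734 counted reads, GFP- replicate 3 being the smallest. The mean normalised count of Adam12 itself was 1362 ± 357 in GFP- libraries and 2302 ± 484 in GFP+ libraries (SD, n = 4 each), which is 0.75 ± 0.24 on the log2 scale (SE, DESeq2 adjusted p = 0.0266, edgeR adjusted p = 0.0643). Markers of melanocytes moved with the groups: 14 of 15 melanocyte genes were lower in GFP+ cells (13 by edgeR), the remaining gene, Mc1r, had no count, and the summed share ran from 0.313% to 0.972% of reads in GFP- and from 0.0479% to 0.145% in GFP+ libraries. The summed share of 19 pan-fibroblast genes ran from 5.10% to 9.70% in GFP- and from 9.90% to 10.1% in GFP+ libraries, and 10 of the 19 were called higher in GFP+ cells and none lower (6 and none by edgeR, with 1 lower at an unadjusted DESeq2 p under 0.05). GFP- replicate 4 had both the highest melanocyte and the lowest pan-fibroblast share. Of the other marker lists, 5 of 7 tested Schwann cell genes were lower (3 by edgeR), 1 of 8 tested pericyte genes was higher (Abcc9, not called by edgeR), 1 of 9 tested blood endothelial genes was lower (Vwf), and none of the 12 leukocyte, 5 lymphatic endothelial or 5 keratinocyte genes tested was called by DESeq2 or edgeR. At an unadjusted DESeq2 p under 0.05 these were 0, 1 and 2 genes. Summed leukocyte counts ran from 797 to 5922 in GFP- and from 841 to 4670 in GFP+ libraries, and summed blood endothelial counts from 1864 to 3065 and from 2131 to 3805. Summed lymphatic endothelial counts ran from 167 to 560 and from 168 to 361. In such bulk samples fewer cells of a type and less RNA per cell cannot be told apart.

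**Figure D1:**
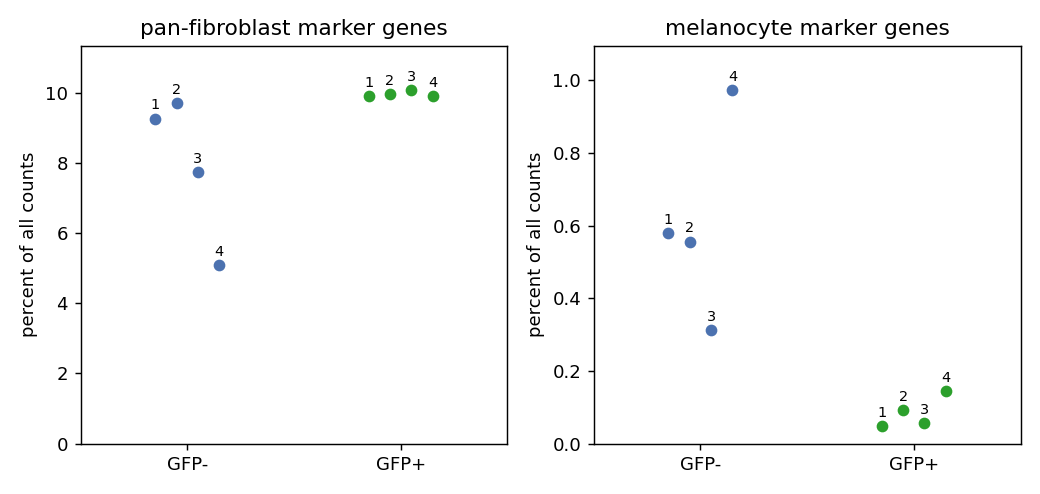
Percent of all counted reads in each library (y axis) that fell on pan-fibroblast genes, left, and melanocyte genes, right, with GFP- libraries in blue and GFP+ libraries in green, numbered by replicate. Melanocyte shares in the 4 GFP+ libraries, at most 0.145%, all lay below those of the 4 GFP- libraries, at least 0.313%.

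Podoplanin, the gate protein, was abundant in both groups. Pdpn lies on the minus strand of chromosome 4 (bases 143267431 to 143299564 of GRCm38, as for all gene positions given here) and is listed as ENSMUSG00000028583. Its normalised count, obtained by dividing raw counts by a size factor per library, was 1727, 1970.04, 2527 and 1609 in GFP- replicates 1 to 4 and 3848, 2613, 3523 and 2659 in GFP+ replicates 1 to 4. The GFP+ libraries all lay above the GFP- libraries, although the highest GFP- library, replicate 3, and the lowest GFP+ library, replicate 2, lay close together. Means were 1958 ± 408 and 3161 ± 620 (SD, n = 4 each), or 1.63-fold, with a log2 difference of 0.70 ± 0.21 (SE, 95% interval 0.29 to 1.11, DESeq2 adjusted p = 0.0134, edgeR adjusted p = 0.0438). Pdpn lost its call when GFP- replicate 1, GFP- replicate 4 or GFP+ replicate 3 was left out (adjusted p = 0.0563, 0.0644 and 0.0799). Its call was lost in 4 of 18 other settings, against at most 1 for each of the other 5 called genes below, and the log2 difference became -0.01 (adjusted p = 0.981) when libraries were scaled on the pan-fibroblast genes.

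The surface markers FAP and THY1 were also higher in GFP+ cells. Fap, a serine protease of the cell surface that marks activated fibroblasts (ENSMUSG00000000392, chromosome 2, 62500943 to 62574075, minus strand), had 1064, 774, 912 and 772 normalised counts in GFP- replicates 1 to 4 and 2294, 1876, 1996 and 1943 in the GFP+ replicates. The highest GFP- library stayed well below the lowest GFP+ library. The means of 880.3 ± 139 and 2027 ± 184 differed 2.31-fold (95% interval 1.83 to 2.92, DESeq2 adjusted p = 5.91e-10).

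Thy1, a GPI-anchored glycoprotein of fibroblasts, T cells and neurons (ENSMUSG00000032011, chromosome 9, 44043384 to 44048579, plus strand), gave 2285, 1969, 1681 and 1182 normalised counts in GFP- and 3542, 2964, 4742 and 2872 in GFP+ replicates 1 to 4. GFP- replicate 4 was the lowest of the 8 libraries and GFP+ replicate 3 the highest, and the groups did not overlap. Means were 1779 ± 468 and 3530.3 ± 861, or 1.98-fold (adjusted p = 0.00207 by DESeq2). T cells carry Thy1 as well, and the leukocyte marker sums given above overlapped between the groups, their part in the Thy1 difference not being tested.

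**Figure D2:**
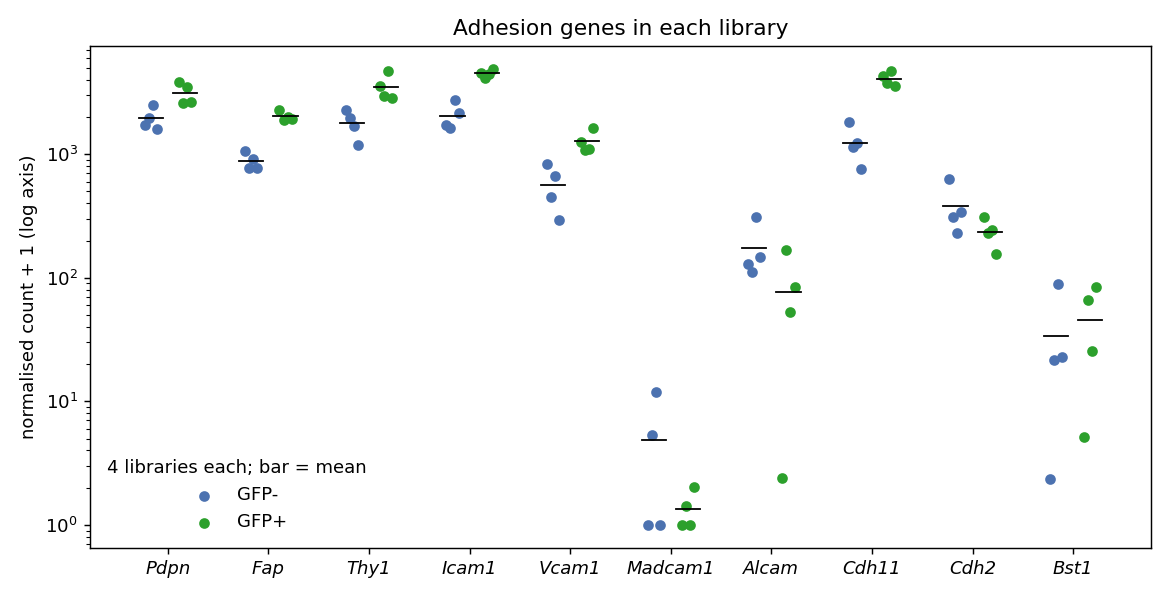
Normalised count plus 1 (log axis) of the 10 adhesion genes in each library, GFP- in blue and GFP+ in green, with bars at the mean of 4 libraries. Pdpn, Fap, Thy1, Icam1, Vcam1 and Cdh11 separate the groups, with GFP+ above, whereas Alcam, Cdh2, Bst1 and Madcam1 overlap.

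The leukocyte ligands differed greatly from one another. Icam1, the ligand of the leukocyte integrins LFA-1 and Mac-1 (ENSMUSG00000037405, chromosome 9, 21015985 to 21028817, plus strand), had normalised counts of 1726, 1619, 2736 and 2155 in GFP- and 4506, 4155, 4446 and 4924 in GFP+ replicates 1 to 4. Its GFP+ libraries lay close together, and each exceeded all GFP- libraries. The means of 2059 ± 507 and 4508 ± 317 gave a log2 fold change of 1.15 ± 0.19 (SE), or 2.21-fold (DESeq2 adjusted p = 2.39e-07, edgeR adjusted p = 0.00209). An antisense gene, Gm47079, shares 511 exon bases with Icam1 and had 27 reads over the 8 libraries.

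Vcam1, the ligand of the integrin α4β1 (ENSMUSG00000027962, chromosome 3, 116109949 to 116129688, minus strand), had 832, 449, 670.2 and 293 normalised counts in GFP- and 1261, 1083, 1102 and 1637 in GFP+ replicates 1 to 4. GFP- replicate 4 was lowest and GFP+ replicate 4 highest, and the groups did not overlap. Its log2 fold change was 1.20 ± 0.32 (SE), from a mean of 561 ± 238 to 1271 ± 257, with a DESeq2 adjusted p of 0.00358 and an edgeR adjusted p of 0.0273. Leaving out 1 library at a time moved the log2 value between 0.97 and 1.49, and the highest adjusted p was 0.0290. The study had listed both Vcam1 and Icam1 from these same samples, so their direction is not independent evidence.

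Vcam1 and Icam1 are also made by endothelium, where MAdCAM-1, the ligand of the gut-homing integrin α4β7, is typical of mucosal venules and lymphoid stroma. The blood endothelial sums given above overlapped between the groups, and their part in the Vcam1 and Icam1 differences was not tested. Madcam1 (ENSMUSG00000020310, chromosome 10, 79664559 to 79668537, plus strand) had raw counts of 0, 6, 1 and 0 in GFP- and 0, 1, 0 and 3 in GFP+ replicates 1 to 4. It was at or close to 0 in both groups and received no adjusted p. A floor of 3 reads per library corresponds to 1.01 to 33.0 normalised counts, so a difference was not detectable at this depth, and no fold is given.

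Of the cadherins, Cdh11 was higher in GFP+ cells and Cdh2 was not called in either direction. Cdh11, the mesenchymal cadherin of fibroblasts and osteoblasts (ENSMUSG00000031673, chromosome 8, 102632095 to 102785642, minus strand), had 1813, 1137, 1231 and 753 normalised counts in GFP- and 4335, 3782, 4747 and 3555 in GFP+ replicates 1 to 4. The lowest GFP+ library lay well above the highest GFP- library, replicate 1. Means of 1233 ± 438 and 4105 ± 539 gave the largest fold of the 10 genes among those called, 3.33-fold (95% interval 2.35 to 4.73), with a log2 fold change of 1.74 ± 0.26 (SE, DESeq2 adjusted p = 3.37e-09, edgeR adjusted p = 0.00134). Leaving out 1 library at a time gave log2 values of 1.55 to 2.00.

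Cdh2, N-cadherin, is a cadherin of neurons, muscle and mesenchyme that melanoma cells can also carry (ENSMUSG00000024304, minus strand of chromosome 18). Its normalised counts were 628, 312, 231 and 338 in GFP- and 311, 230.1, 241 and 155 in GFP+ replicates 1 to 4. GFP- replicate 1 was the highest library, and the other values of the groups overlapped. Means were 377 ± 173 and 234 ± 63.9, and the log2 difference of -0.72 ± 0.35 (SE, 95% interval -1.40 to -0.04) did not pass the test (DESeq2 adjusted p = 0.207). Without GFP- replicate 1 it was -0.37 (DESeq2 adjusted p = 0.589). When libraries were scaled on the pan-fibroblast genes, which lowers the values of all genes, the value was -1.39 with a DESeq2 adjusted p of 0.00411. Melanocyte markers were lower in GFP+ libraries (above), and their part in the Cdh2 values was not tested.

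The lower-count members Alcam and Bst1 varied widely between libraries. Alcam, the immunoglobulin-fold ligand of CD6 on T cells (ENSMUSG00000022636, chromosome 16, 52248996 to 52454074, minus strand), had 129, 110.4, 308 and 145 normalised counts in GFP- and 1.39, 168, 52.2 and 83.2 in GFP+ replicates 1 to 4. GFP+ replicate 1 held 1 Alcam read and stood far below the rest, and the groups overlapped. The means of 173 ± 90.8 and 76.2 ± 69.8 gave a log2 difference of -1.15 ± 0.78 (SE) and an adjusted p of 0.430 by DESeq2. The value rested on single libraries, being -0.69 without GFP+ replicate 1, -0.75 without GFP- replicate 3 and -1.88 without GFP+ replicate 2, none of them called. Among 2393 genes whose mean was within 1.5-fold of Alcam's, 131 (5.47%) were under 10% of their own mean in GFP+ replicate 1, against 0.0836% to 1.09% in the other GFP+ libraries and 3.68% in GFP- replicate 1.

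Bst1, an ADP-ribosyl cyclase anchored on stromal and myeloid cells (ENSMUSG00000029082, chromosome 5, 43818885 to 43843986, plus strand), had normalised counts of 1.36, 20.8, 87.9 and 22.1 in GFP- and 4.17, 64.8, 24.6 and 83.5 in GFP+ replicates 1 to 4. Both libraries numbered 1 were the lowest, and the groups overlapped. The log2 difference was 0.61 ± 1.01 (SE, DESeq2 adjusted p = 0.813) with means of 33.0 ± 37.8 and 44.3 ± 36.3. Leaving out 1 library moved it between 0.09 (without GFP+ replicate 4) and 1.57 (without GFP- replicate 3), with 0.21, 0.35 and 1.07 without GFP- replicate 1, GFP+ replicate 2 and GFP+ replicate 1, and limma voom gave 1.58, none of them called. Bst1 shares 98 exon bases with Fbxl5 on the opposite strand, which had 6492 reads over the 8 libraries. The count used the strand, and leakage between strands was not tested.

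Of the 10 genes, 9 received an adjusted p, 6 of them were higher in GFP+ cells (Pdpn, Fap, Thy1, Icam1, Vcam1 and Cdh11) and none was lower, by DESeq2 and equally by edgeR (1 was lower at an unadjusted p under 0.05 by DESeq2, Cdh2). Across the 15283 genes tested, 9.42% were called, 4.66% higher and 4.76% lower (by edgeR 2.83% and 2.28% of 14323 genes). The median log2 fold change was 0.99 over the 9 tested members and -0.01 over all genes tested. The 6 called genes also were those whose libraries did not overlap, which was true of 6.37% of genes with GFP+ above and 5.95% with GFP+ below. Abundant genes were called more often, since 6.93% of the 8796 genes with a mean of at least 100 were called higher and 6% lower, and 8 of the 10 members had such a mean. GFP- replicate 4, with the highest melanocyte and lowest pan-fibroblast share, was also the lowest GFP- library for Pdpn, Fap, Thy1, Vcam1 and Cdh11, and without it 5 of the 6 genes were called, Pdpn being lost.

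The size of these differences depended on the scaling. With size factors from the pan-fibroblast genes, the median log2 value of all tested genes shifted by -0.72, and 2 members were then called: Cdh11 remained higher (log2 1.12, DESeq2 adjusted p = 4.69e-04) and Cdh2 was lower. Under that scaling the log2 values were 0.61 for Vcam1 (DESeq2 adjusted p = 0.147), 0.38 for Icam1 (0.403), 0.35 for Thy1 (0.289) and 0.51 for Fap (0.161), while Pdpn (-0.01) and Bst1 (-0.09) came to lie just below 0. The pan-fibroblast list holds Pdgfra, a gene of the sort gate that was itself called higher in GFP+ cells, as were 9 others of its 19 genes. Without Pdgfra in the list the shift was -0.69, the same 2 members were called, and Pdpn was at 0.01. Scaling on pan-fibroblast genes left 2.57% of calls in the higher direction across all genes, against 49.5% with the standard factors.

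**Figure D3:**
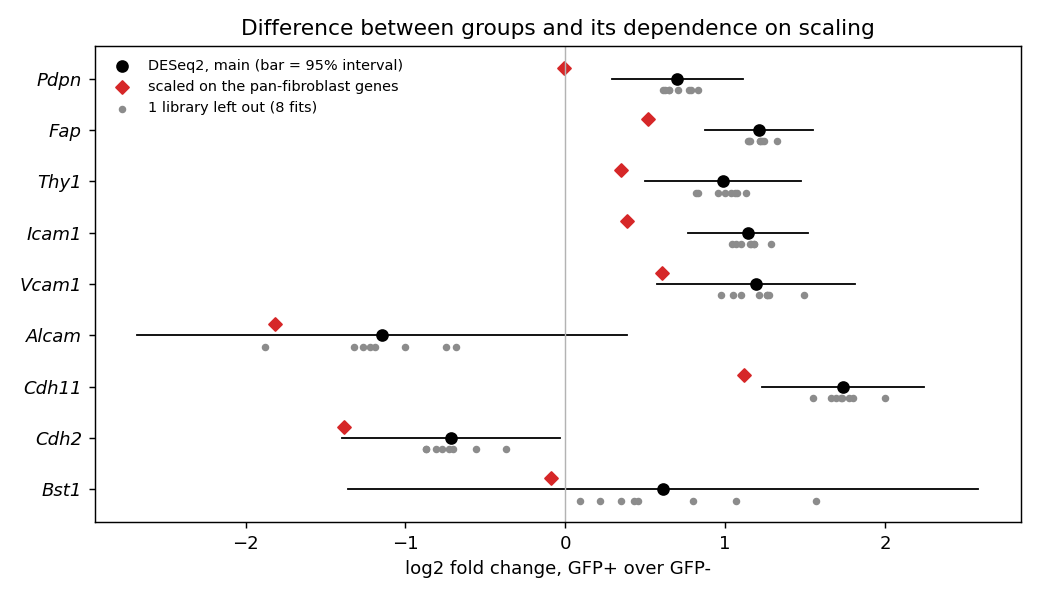
Log2 fold change of GFP+ over GFP- (x axis) for the 9 tested members, as the DESeq2 estimate with its 95% interval (black), after scaling on pan-fibroblast genes (red) and after leaving out 1 library at a time (grey). The estimates of Vcam1, Icam1, Fap, Thy1 and Cdh11 lie above 0 and those of Cdh2 and Alcam below 0 in all of these fits, the 95% intervals of Alcam and Bst1 span 0, and the estimates of Pdpn (-0.01) and Bst1 (-0.09) fall below 0 under pan-fibroblast scaling.

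Levels were compared between genes per length, as normalised counts per kilobase of exon. In GFP- cells the order was Pdpn at 1078 ± 224 per kilobase, Thy1 at 594 ± 156, Icam1 at 472 ± 116, Fap at 155 ± 24.5, Cdh11 at 139 ± 49.2, Vcam1 at 63.2 ± 26.8, Cdh2 at 46.8 ± 21.5, Alcam at 24.3 ± 12.8, Bst1 at 9.96 ± 11.4 and Madcam1 at 2.66 ± 3.61 (SD, n = 4). The ranges of neighbours did not overlap between Pdpn and Thy1 and between Icam1 and Fap, and the other neighbours overlapped. In GFP+ cells Cdh11, at 461 ± 60.6 per kilobase, stood above Fap, at 358 ± 32.6, and the order of the other abundant genes was Pdpn at 1740 ± 341, Thy1 at 1179 ± 287, Icam1 at 1034 ± 72.7 and, below Fap, Vcam1 at 143 ± 28.9. Ranges in GFP+ cells were separate between Icam1 and Cdh11, between Fap and Vcam1 and between Vcam1 and Cdh2, the last at 29.1 ± 7.92 per kilobase. Pdpn lay at percentile 98.4 of genes in GFP- and 98.7 in GFP+ cells, Icam1 at 95.8 and 97.9, Cdh11 at 81.6 and 95.1, and Vcam1 at 63.3 and 82.4.

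Since Pdpn was in the gate of all cells, each member was also set against Pdpn in the same library. On the log2 scale, with 1 added to each normalised count, the ratio of Cdh11 to Pdpn lay between -1.09 and 0.07 in GFP- and between 0.17 and 0.53 in GFP+ libraries, a difference of 1.10. Cdh2 lay between -3.45 and -1.46 in GFP- and between -4.09 and -3.50 in GFP+ libraries, a difference of -1.32. Neither pair of ranges overlapped, and both gave p = 0.0286 by an exact two-sided permutation test, the smallest that 70 divisions of 4 against 4 allow, with p = 0.114 after adjustment over the 8 comparisons. The differences of the other members from Pdpn were 0.57 for Vcam1 (exact p = 0.171), 0.47 for Icam1 (exact p = 0.0857), 0.31 for Thy1 (exact p = 0.257), 0.52 for Fap (exact p = 0.0857), -2.82 for Alcam (exact p = 0.0571) and 0.01 for Bst1. None of the 8 passed the adjustment. With 4 libraries per group, a gene at the smallest exact p could pass only if most of the others also reached it.

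**Figure D4:**
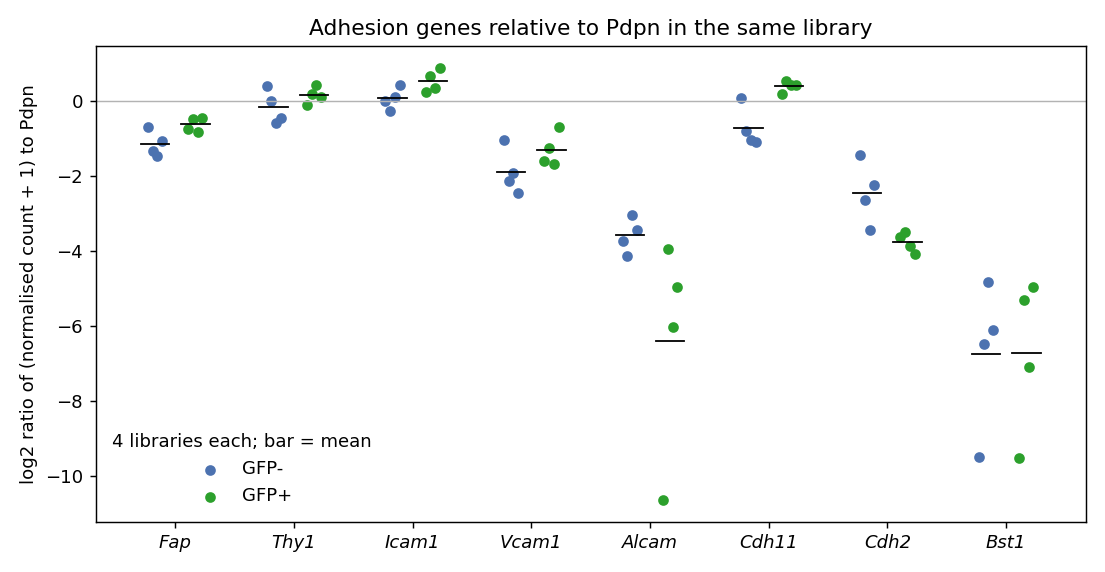
Log2 ratio of each member to Pdpn in the same library (y axis, 1 added to each normalised count), GFP- in blue and GFP+ in green, with bars at the mean of 4 libraries. Cdh11 ratios are higher and Cdh2 ratios lower in all GFP+ libraries than in any GFP- library, and the other members overlap.

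Related genes were read from 5 lists of adhesion and stromal genes, which together held 93 genes outside the members. Of these, 84 were tested, 11 were higher in GFP+ cells (13.1%) and 8 were lower (9.52%), against 4.66% and 4.76% of all tested genes and 6.93% and 6% of those with a mean of at least 100. By edgeR 9 were higher and 5 lower, and under pan-fibroblast scaling 2 were higher and 21 lower. Of the genes described below, Jam2 kept its call under that scaling (log2 1.39, DESeq2 adjusted p = 0.0042). Fat4 (log2 0.64, DESeq2 adjusted p = 0.151), Cd47 (0.17, 0.684) and Lrp1 (0.17, 0.638) lost theirs. Pdgfra, Ly6a, Cxcl12 and Cxcl13 each lost the call in 1 of 18 other settings. Among 25 other immunoglobulin-fold adhesion molecules, 24 were tested and 3 were higher, 3 lower. Jam2, a junctional adhesion molecule, rose from 151 ± 22.7 to 672 ± 127 normalised counts (log2 2.17, DESeq2 adjusted p = 2.19e-16), and Cd47, the "don't eat me" signal that binds SIRPα on macrophages, rose from 2497 ± 335 to 4557 ± 615 (DESeq2 adjusted p = 1.43e-05). Cadm2 was called by DESeq2 (74.1 to 223, adjusted p = 0.0492) but not by edgeR (adjusted p = 0.139), and its call was lost in 11 of 18 other settings, among them the removal of any 1 library except GFP- replicate 1 or 3 (DESeq2 adjusted p = 0.0529 to 0.143). Mcam, a pericyte and melanoma cell adhesion molecule, fell from 222 to 73.4 (DESeq2 adjusted p = 5.93e-04, 0.141 after thinning to the smallest library), Cadm1 from 237 to 52.2 (5.39e-04) and Cadm4 from 133 to 13.9 (0.00274, 0.0705 by edgeR). The log2 value of Cadm4 was -3.22, and -4.39 without GFP+ replicate 4, its highest GFP+ library. Bsg, basigin, was at 3026 and 2371 (DESeq2 adjusted p = 0.179). It was called lower without GFP- replicate 3 (log2 -0.46, DESeq2 adjusted p = 0.0226). The same held under pan-fibroblast scaling, which lowers the values of all genes (log2 -1.08, DESeq2 adjusted p = 0.0051). Melanocyte marker sums were also lower in GFP+ libraries, and their part in the lower adhesion genes was not tested.

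The other cadherins and catenins gave 1 higher and 5 lower genes among 16 tested. Fat4, an atypical cadherin of planar polarity, rose from 652 to 1711 normalised counts (log2 1.42, DESeq2 adjusted p = 1.58e-10). Cdh4 and Cdh19, a cadherin of Schwann cells and melanocytes, fell by 2.47 and 2.44 on the log2 scale, and the plakophilin Pkp4 fell from 633 to 234 (DESeq2 adjusted p = 0.00108, 0.0663 after thinning). β-catenin, Ctnnb1, which couples cadherins to actin, was called lower by DESeq2 (5307 to 3670, adjusted p = 0.0129) and not by edgeR (0.0667), as was Afdn (1226 to 825, adjusted p = 0.0274 and 0.0901). Ctnnb1 lost its DESeq2 call without GFP- replicate 2 or 4 or GFP+ replicate 2 or 3 (adjusted p = 0.0525 to 0.0805), and Afdn without any 1 library except GFP- replicate 3 or GFP+ replicate 4 (adjusted p = 0.0587 to 0.154). Fat1 was at 3822 and 3704 (DESeq2 adjusted p = 0.931).

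Counter-receptors and membrane partners of the member proteins formed a separate list, which leaves out the catenins described above. None of 17 tested counter-receptors and membrane partners passed by DESeq2 or edgeR, 1 had an unadjusted DESeq2 p under 0.05, and Clec1b, the gene of CLEC-2, had no count. Cells with CD45 on the surface had been gated out of both groups, so these values do not describe partners on leukocytes of the tumour. Itga4, which pairs with Itgb1 to bind VCAM-1, averaged 500 ± 165 and 245 ± 205 normalised counts (DESeq2 adjusted p = 0.265), and Itgb2, a subunit of LFA-1, 324 and 256 (DESeq2 adjusted p = 0.787). Other mesenchymal surface markers gave 4 higher and 1 lower of 15, with Pdgfra, the other gate protein, rising from 5774 to 14371 (DESeq2 adjusted p = 1.93e-12), Ly6a, which encodes SCA-1, from 2192 to 5108 (4.45e-09), Lrp1 from 31327 to 56847 (5.04e-05), and Ngfr by 2.34 on the log2 scale. Mcam was the lower gene, and Cd34 was at 6060.3 and 8194 (DESeq2 adjusted p = 0.320). Cd44, the receptor of hyaluronan that binds podoplanin, was at 6501 and 6231 (DESeq2 adjusted p = 0.928). Under pan-fibroblast scaling, which lowers the values of all genes, Cd44 was called lower (log2 -0.73, DESeq2 adjusted p = 0.0376). With Pdgfra taken out of that list it was not called (DESeq2 adjusted p = 0.0533). Among 15 tested lymphoid-tissue stroma genes, Cxcl12 rose from 3290 to 6970 (DESeq2 adjusted p = 9.09e-06), Cxcl13 from 600.4 to 1465 (0.00114) and Tnfrsf1a from 1431 to 2216 (0.0201, 0.0579 by edgeR and 0.0632 to 0.107 without GFP- replicate 1 or 4 or GFP+ replicate 1 or 3), and none fell by either tool (1 at an unadjusted DESeq2 p under 0.05). Il33, the most abundant uncalled gene of that list, averaged 1339 and 1472 (DESeq2 adjusted p = 0.819).

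**Figure D5:**
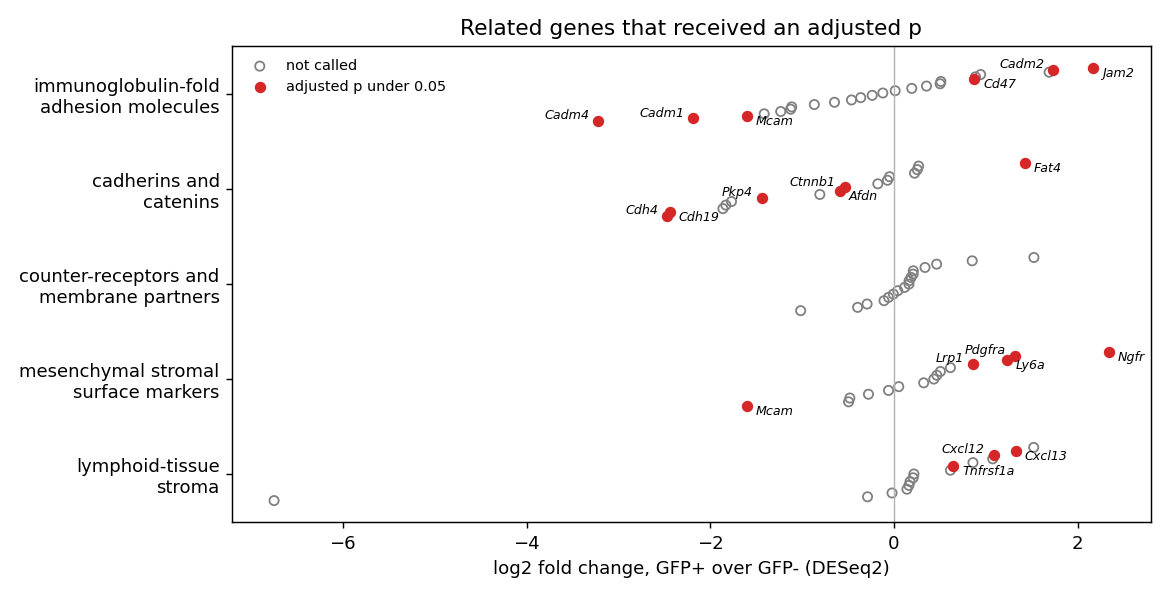
Log2 fold change of GFP+ over GFP- (x axis) of the tested genes of 5 related lists, filled red where the DESeq2 adjusted p is under 0.05. In the plot 3 lymphoid-tissue stroma genes are called higher, 5 genes of the cadherin and catenin list lower and no counter-receptor in either direction, and under pan-fibroblast scaling 2 related genes were higher and 21 lower in all.

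Genes whose profile was most like that of Icam1, Vcam1 or Pdpn were ranked by the root mean square difference of log2 values, each gene centred on its own mean, over the 8 libraries, among 8811 genes with a mean of at least 100. Icam1 was closest to Ifi207, of the interferon-inducible p200 family whose near-identical members make counts uncertain, at a difference of 0.0818, and next to C1s1, a protease of the complement C1 complex, at 0.127. Vcam1 was closest to Frmd4b, at 0.256, followed by Gm8818, at 0.265, and Pdpn to the ARF exchange factor Cyth3, at 0.0678, followed by Gng12, a G protein subunit, at 0.114. This likeness describes profiles in 8 libraries.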

How the data were processed

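RNA from 8 sorted cell samples (4 GFP+ and 4 GFP-, grouped by their titles) was prepared with the SMARTer Stranded Pico kit and sequenced on a NextSeq instrument. According to the study's methods and the submitters' processing notes, reads were trimmed with cutadapt 3.4, mapped to GRCm38 with STAR 2.7.3a and assigned to Ensembl genes by strand with featureCounts 2.0.1. Reads matching several genes can be lost by such counting. The authors deposited 1 table with raw counts per gene and library, and every value reported here starts from those counts. The authors' normalised values, a score that equals the count divided by a DESeq2 size factor and rounded, served as a check only. Columns of the authors' comparison (fold changes, p-values and fit statistics) were not used.

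Counts were fitted in R 4.3.3 with DESeq2 1.42.0, a model holding just the group, Wald tests and Benjamini-Hochberg adjustment over all 15283 genes that received an adjusted p. Genes under 0.05 were called. edgeR 4.0.16 (quasi-likelihood, TMM) and limma 3.58.1 (voom) were alternatives, as were other size factors, filters, pseudocounts, thinning to the smallest library, and leaving out each library. On simulated counts with known changes over 25514 genes, DESeq2 recovered 42 of 100 genes changed by 1 on the log2 scale and 87 of 100 changed by 2, and edgeR 24 and 71, with 55 and 5 false calls. The share of false calls by DESeq2 was thus above the nominal 0.05 in this simulation, and genes called only by DESeq2 are less certain. Exon lengths and positions came from GENCODE M21, which held 53706 of the 53801 identifiers (99.82%), and promoter sequences from RefSeq. Ratios used a pseudocount of 1. Where a symbol had 2 rows (Itgam, Ccl21a, Ccl19) the row with more reads was used. Replicates of a group differed by more than counting error (chi-square per degree of freedom 10.2 to 81.3), so errors were taken from the spread between libraries, and floors of 3 reads cover counting error only.

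The members and lists were chosen with earlier results of these data known. Named were all members, up to 3 called genes in each direction and the most abundant uncalled gene of each related list, and the 2 profiles closest to Vcam1, Icam1 and Pdpn. Cdh4, Cdh19, Ngfr, Itga4, Itgb2, Abcc9, Vwf and Clec1b were named after their values were seen.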

Additional observations from a re-analysis of the deposited data

How the results depend on the processing

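Across the other settings, 166 of 177 member values kept their direction and side of the threshold. The number of members called stayed at 6 in 14 of 18 settings. It was 2 with pan-fibroblast size factors and 5 to 6 when 1 library was left out. Leaving out both libraries numbered 1, chosen after seeing the data, gave 5, without Pdpn (log2 0.56, adjusted p = 0.103). Over all genes 1439 were called, against 732 by edgeR (729 of them shared with DESeq2), 3224 with pan-fibroblast size factors, 825 after thinning, 877 by edgeR without GFP- replicate 3 (added after seeing the data) and 969 to 1837 when 1 library was left out. Among related genes, 11 higher became 2 with pan-fibroblast size factors, and 8 lower became 5 by edgeR, 21 with pan-fibroblast size factors and 4 after thinning. Leaving out 1 library gave 9 to 13 higher and 6 to 11 lower.

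Pan-fibroblast size factors shifted the median of all genes by -0.72, so values between 0 and about that size change sign by construction, here Pdpn (-0.011), Bst1 (-0.091), Cd34 (-0.22), Tnfrsf1a (-0.10) and Il33 (-0.49). With that list less Pdgfra, added after seeing the data, 2803 genes and 2 members were called, 2 related genes were higher and 19 lower, and the values were -0.065 for Bst1, -0.20 for Cd34, -0.074 for Tnfrsf1a and -0.46 for Il33. For Madcam1, with at most 6 reads in any library, the fitted value depended on the model and took a positive sign after thinning (0.15), from which no direction is read. With 1 library left out, Fat1 ran from -0.13 to 0.037, Cd44 from -0.21 to 0.032 and Il33 from -0.039 to 0.26. Bst1 relative to Pdpn turned to -0.28 with a pseudocount of 10 and to -0.77 after thinning, and leaving out 1 library gave -0.92 to 0.95. The cause of the other changes was not tested.

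Whether GFP+ and GFP- libraries with the same number share a tumour is not stated in the sources used here. Deviations of same-numbered libraries correlated at 0.05, -0.16, -0.12 and 0.26 for numbers 1 to 4, those numbered 4 were each other's best match and the others were not, so the numbers were not treated as pairs. A fit with the replicate block called 1492 genes and 6 members. Madcam1 was too low for a comparison at this depth. The lowest Bst1 values were in both libraries numbered 1, not in GFP- replicate 3, which holds the fewest reads. In GFP- and GFP+ replicate 1, 22.9% and 25.5% of genes near the Bst1 level fell under 10% of their own mean, against 2.07% to 6.42% elsewhere. The lowest Alcam value was in GFP+ replicate 1, whereas Alcam in GFP- replicate 1 was at 103% of its own mean.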

Other observations

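The cadherin composition of the libraries was described further, with a ratio chosen after the values were seen and therefore given without a test. Cdh11 reads per Cdh2 read numbered 2.89, 3.64, 5.33 and 2.23 in GFP- replicates 1 to 4 and 13.9, 16.4, 19.7 and 22.9 in GFP+ replicates 1 to 4. Per kilobase of exon the ratios were 2.61, 3.30, 4.83 and 2.02 in GFP- and 12.6, 14.9, 17.8 and 20.8 in GFP+ libraries. This ratio is free of the size factors, since both genes are read from the same library. Melanocyte shares were lower in all GFP+ than in all GFP- libraries, and their part in the ratio was not tested.

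Relative to the mean log2 level of the pan-fibroblast genes, the difference between GFP+ and GFP- libraries was 1.15 for Cdh11, 0.56 for Fap, 0.35 for Thy1 and -1.27 for Cdh2, each with an exact two-sided permutation p of 0.0286, the smallest that 4 against 4 allows, and 0.0571 after adjustment. The same difference was 0.62 for Vcam1 (exact p = 0.0857), 0.51 for Icam1 (exact p = 0.314), -2.77 for Alcam (exact p = 0.0857), which includes the library with 1 read, and 0.06 for Bst1 (exact p = 1). For Pdpn it was 0.05, not tested. None of the 8 tested passed the adjustment, which again required most of them to reach the smallest exact p.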
